A study of Homo sapiens with 6 samples.

Results

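Interferon-stimulated genes outside the IFIT family were followed here in maps of N6-methyladenosine (m6A) from U-251 MG, an established line of human glioblastoma cells. The set is a list of 53 genes named by RefSeq symbol, of 20046 coding genes in the RefSeq table, and all 53 were found in that table. A gene was given a peak when the peak touched its body on GRCh38. Where a peak touched several coding bodies, it went to the body that held the whole peak and lay inside the others. The rule that names the genes uses no measured value, but the list was chosen with earlier results of these data known.

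The cells carried a short hairpin RNA against TRA2A (shTRA2A), a hairpin against METTL3 (shMETTL3) or a control hairpin (shNC). TRA2A belongs to the SR-like splicing regulators that bind RNA, METTL3 is the methyltransferase that writes m6A, and no agent beyond the hairpins is named in the labels. Whether the cells of a hairpin were a clone or a pool is not stated, and all groups share the same line and medium. Each condition had 1 immunoprecipitated and 1 input library and is represented by 1 deposited peak list, so no difference between conditions has a replicate check and none was tested. Read depth and transcript levels are unknown here, so less methylation, less transcript and fewer reads cannot be told apart behind a missing peak. No treatment with interferon is named, and whether the cells or hairpins set off an interferon response was not tested.

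Type I and type II interferons act through receptors, JAK kinases and STAT factors, which together with IRF9 switch on many genes through 2 promoter elements, the ISRE and the GAS. The products sense viral nucleic acid, attach the ubiquitin-like protein ISG15 to other proteins, degrade or edit RNA, block viral entry and assembly, and present antigen. m6A is placed on many messenger RNAs, mostly in long internal exons and around the stop codon, and is known to affect their stability and translation, those of interferon and its targets included.

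The promoters of the listed genes show what they share apart from any peak, and they are printed first because the peaks lie on the transcripts made from them. RefSeq promoter windows (GRCh38.p14) run from 250 bases before the start of a gene to 50 after, and 41 of the 53 genes had at least 1. The core of the ISRE was searched on both strands as GAAANNGAAA, 2 tandem half-sites. It was present for 22 of the 41 genes, 53.7% (37.4 to 69.3%, exact binomial), against 659 of 15842 coding genes with a window, 4.16%. The GAS, searched as TTCNNNGAA, a palindrome that can overlap an ISRE core by a few bases, was present for 14 of 41 genes, 34.1%, against 8.98% of coding genes. Among the genes with a control peak and a window 7 of 18 had an ISRE core, 38.9% (17.3 to 64.3%). Among those with a window and no peak in any list 11 of 15 did, 73.3% (44.9 to 92.2%). These intervals overlap, and the difference was not tested. A match is only a run of letters in the window, and no match says nothing about the factor.

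The windows below are the sense strand of the gene, with every ISRE core in capitals, overlapping cores as 1 stretch. IFIH1 (chr2:162318635-162318934, minus strand) and TRIM21 (chr11:4393653-4393952, minus strand) are genes with control peaks. ISG15 (chr1:1013247-1013546, plus strand) and HERC5 (chr4:88456869-88457168, plus strand) had a peak in no list.
IFIH1: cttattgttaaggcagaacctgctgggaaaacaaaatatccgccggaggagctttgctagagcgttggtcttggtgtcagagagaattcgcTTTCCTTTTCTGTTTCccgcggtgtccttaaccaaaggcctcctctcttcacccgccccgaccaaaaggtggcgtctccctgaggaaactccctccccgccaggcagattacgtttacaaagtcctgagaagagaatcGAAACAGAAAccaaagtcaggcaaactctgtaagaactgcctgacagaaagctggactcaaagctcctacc
TRIM21: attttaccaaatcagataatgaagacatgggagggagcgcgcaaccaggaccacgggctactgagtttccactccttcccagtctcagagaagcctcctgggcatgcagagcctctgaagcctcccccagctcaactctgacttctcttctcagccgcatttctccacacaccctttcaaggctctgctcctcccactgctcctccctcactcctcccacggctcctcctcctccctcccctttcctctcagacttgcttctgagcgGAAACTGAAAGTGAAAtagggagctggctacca
ISG15: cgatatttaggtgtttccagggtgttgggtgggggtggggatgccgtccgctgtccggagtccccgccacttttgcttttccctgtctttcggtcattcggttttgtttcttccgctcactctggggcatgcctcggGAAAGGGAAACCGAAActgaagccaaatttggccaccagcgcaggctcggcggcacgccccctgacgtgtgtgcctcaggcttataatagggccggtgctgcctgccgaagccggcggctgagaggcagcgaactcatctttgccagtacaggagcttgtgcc
HERC5: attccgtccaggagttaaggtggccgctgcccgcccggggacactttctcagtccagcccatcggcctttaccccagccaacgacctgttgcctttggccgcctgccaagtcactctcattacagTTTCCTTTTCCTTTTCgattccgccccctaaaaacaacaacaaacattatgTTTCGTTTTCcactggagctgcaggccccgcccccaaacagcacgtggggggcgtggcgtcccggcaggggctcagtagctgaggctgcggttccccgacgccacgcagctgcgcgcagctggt

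IFIH1 and HERC5 hold 3 cores each and TRIM21 and ISG15 hold 2 each. Those of TRIM21 begin 17 and 23 bases after the start of the gene, and those of the other genes begin before it. Windows with ISRE cores thus occurred in genes with and without peaks, and XAF1 and SP100, which had 11 and 5 control peaks, had no core in their windows.

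A single window was touched by a peak, that of TAP1, the transporter that moves peptides to MHC class I molecules. The window is chr6:32853655-32853954 on the minus strand, and the bases under the control peak (chr6:32853649-32853723, score 9.02) are in capitals.
TAP1: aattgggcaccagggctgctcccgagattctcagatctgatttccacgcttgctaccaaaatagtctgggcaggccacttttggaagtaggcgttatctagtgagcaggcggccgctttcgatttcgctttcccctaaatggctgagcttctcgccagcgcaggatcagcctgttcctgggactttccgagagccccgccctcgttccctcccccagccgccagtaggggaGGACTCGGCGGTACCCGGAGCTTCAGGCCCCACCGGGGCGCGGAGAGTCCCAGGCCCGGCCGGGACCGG

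Of the 75 nt of that peak 69 lie in the window, and its first base is 19 bases before the annotated start of TAP1. The capitals open with GGACT, a common form of the m6A consensus, searched on the sense strand alone. This GGACT lies before the annotated start, outside the annotated gene body. The same 69 positions held GGACT in 6.54% of 22198 windows of coding genes. TAP1 had no shTRA2A and no shMETTL3 peak, and its control peak ranked 8055 of 9206.

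Listed genes carried peaks more often than coding genes at large in all 3 lists. In the shTRA2A list 10 of 53 had a peak, 18.9% (exact Clopper-Pearson 95% interval 9.44 to 32.0%), against 8.86% of all coding genes. In the shMETTL3 list 19 of 53 did, 35.8% (23.1 to 50.2%), against 15.6%. In the control 26 of 53 did, 49.1% (35.1 to 63.2%), against 20.0%. With only the peaks scored above the middle of their list kept, an shTRA2A peak was left in 4 of 53, 7.55%, against 4.73% of coding genes, and the lower bound of that interval (2.09%) is below the overall share. An shMETTL3 peak was left in 11 of 53, 20.8%, against 9.15%. With each list limited to its 2736 best peaks, a control peak was left in 15 of 53, 28.3%, against 7.86%. The intervals cover counting error alone, and reads without molecular identifiers are not independent molecules. A peak needs a transcript and a long body is touched more readily. The 35 listed genes with any peak had a median body of 32158 nt, against 19994 nt for the 18 without, and over all coding genes these medians were 41326 and 18798 nt.

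The 3 lists held 12, 23 and 63 peaks in the listed genes for shTRA2A, shMETTL3 and shNC. Their scores, the authors' own values on a scale that the lists do not explain, ran from 7.14 to 8.86 in shTRA2A, from 4.23 to 22.0 in shMETTL3 and from 9.02 to 62.2 in shNC. Scores of different lists are not on a common scale, so each peak was also placed as a percentile of its own list. The median percentile was 42.6 in shTRA2A, 56.1 in shMETTL3 and 64.3 in shNC, where 48 of 63 peaks were in the upper 50% of the list. XAF1 supplied 11 of the 63, all in the upper 50%, and 5 of these overlap other XAF1 peaks on the opposite strand. The listed genes thus had well-scored control peaks, XAF1 weighing heavily among them. Of their 12 shTRA2A peaks 5 and of their 23 shMETTL3 peaks 12 were in the upper 50%.

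**Figure D1:**
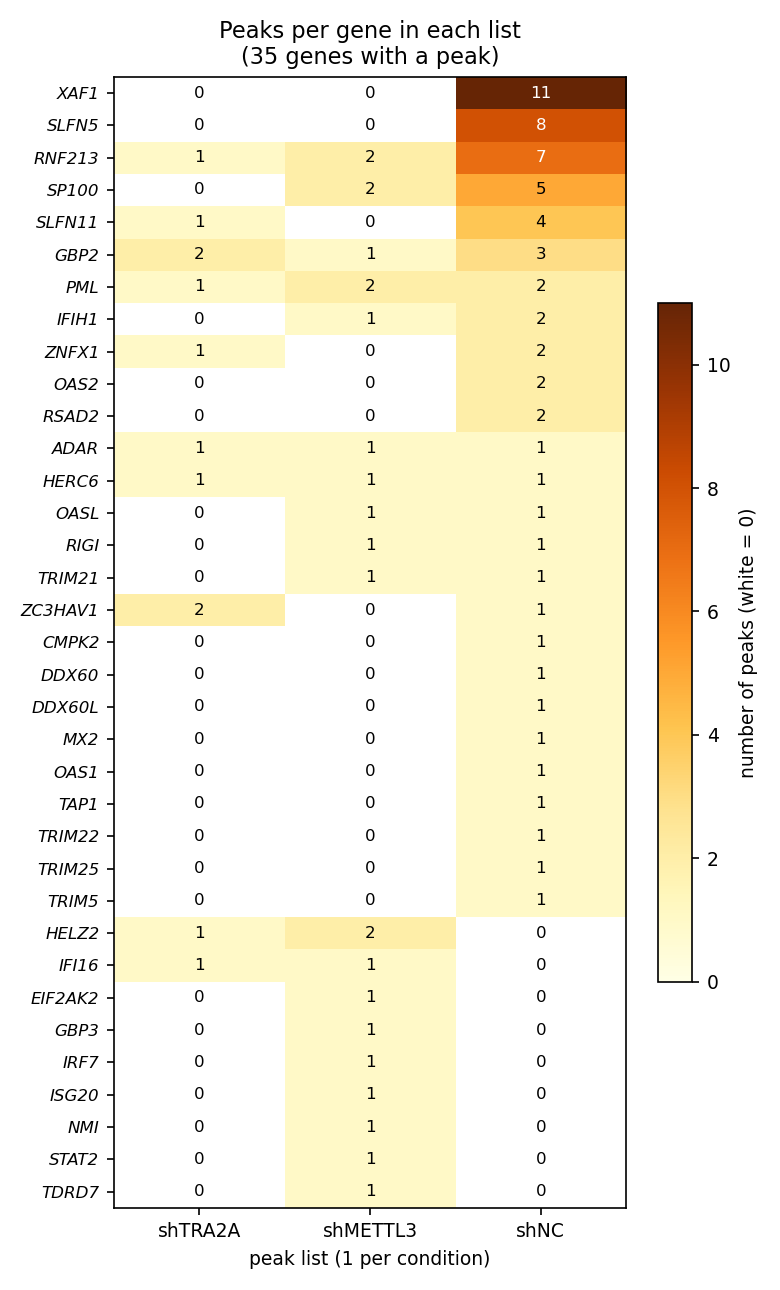
Number of peaks in each of the 35 listed genes that had any, by list (columns, 1 list per condition), with genes ordered by their control peaks. XAF1, SLFN5 and RNF213 head the control column with 11, 8 and 7 peaks, and 9 genes at the bottom have knockdown peaks only.

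**Figure D2:**
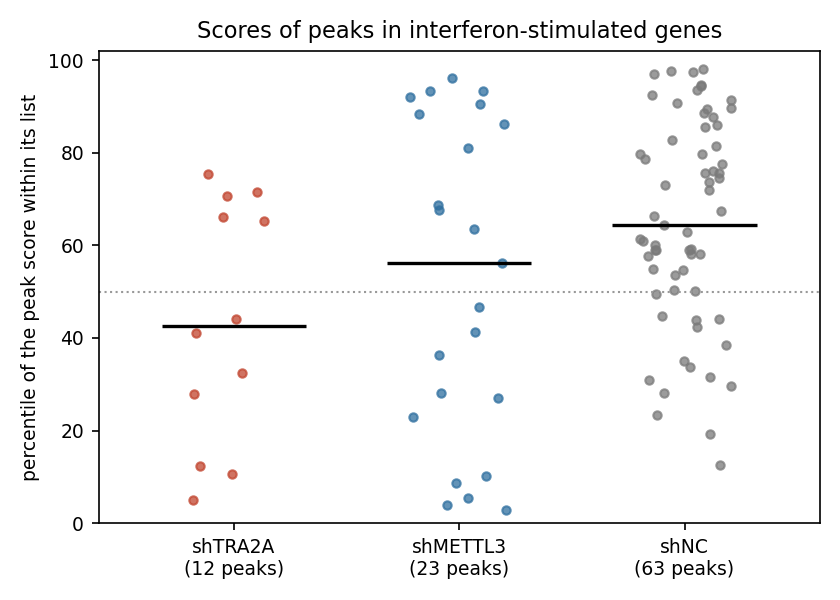
Each point is a peak in a listed gene and the vertical axis is the percentile of its score within its own list. Black bars are medians (42.6 for shTRA2A, 56.1 for shMETTL3, 64.3 for shNC), and the dotted line marks the middle of a list; the sideways scatter carries no value.

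Most control peaks of these genes had no counterpart at the same place in either knockdown list. Of the 63 control peaks 2 were overlapped by an shTRA2A peak, 3.17% (0.387 to 11%), against 9.58% of all control peaks, which the interval holds. By an shMETTL3 peak 3 were overlapped, 4.76% (0.993 to 13.3%), against 17.9%. Counted by gene, 1 of the 26 genes with a control peak had an overlapped control peak in shTRA2A, 3.85% (0.0973 to 19.6%), against 16.1% of all control peak genes. In shMETTL3 3 did, 11.5% (2.45 to 30.2%), against 28.4%. Both intervals by gene hold the overall shares. Peaks of a gene are not independent, so the intervals over peaks are too narrow.

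Having a peak anywhere in the gene was a different matter. An shTRA2A peak was present in 8 of the 26 genes that had a control peak, 30.8% (14.3 to 51.8%), against 29.1% of all control peak genes, so this share was near that of the whole list. An shMETTL3 peak was present in 10 of 26, 38.5% (20.2 to 59.4%), against 47.8%, which lies within the interval.

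Over the whole control list, peaks with the best scores were overlapped most often. The listed genes had 18 peaks in the top quintile of the control list by score, in 9 genes. None of the 18 was overlapped in shTRA2A, against 28.2% of the quintile. A count of 0 allows up to 16.7% when set at 3 counts of the total, and the exact upper bound is 18.5%. In shMETTL3 3 of 18 were, 16.7% (3.58 to 41.4%), against 44.2%. XAF1 supplied 6 of the 18. These 6 are pairs of peaks that overlap on opposite strands, so each place was counted on both strands and the limits for the 18 are too narrow. Without XAF1 0 of 12 were overlapped in shTRA2A (exact upper bound 26.5%), against 28.3%. The 12 lie in 8 genes, and peaks of a gene are not independent. This bound is therefore too narrow to set the share apart from 28.3%. In shMETTL3 3 of 12 were, 25% (5.49 to 57.2%), against 44.3%, which that interval holds. The median width was 309 nt for the 18 and 350 nt for the quintile, and 250 nt without XAF1. Of the peaks up to 200 nt wide 2 of 6 were overlapped in shMETTL3, 33.3%, against 35.2% of the quintile at that width. Of the wider ones 1 of 12 was, 8.33% (0.211 to 38.5%), against 46.8%. All 6 XAF1 peaks are among these 12, so that interval is too narrow as well. The part of width in these counts was not tested.

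**Figure D3:**
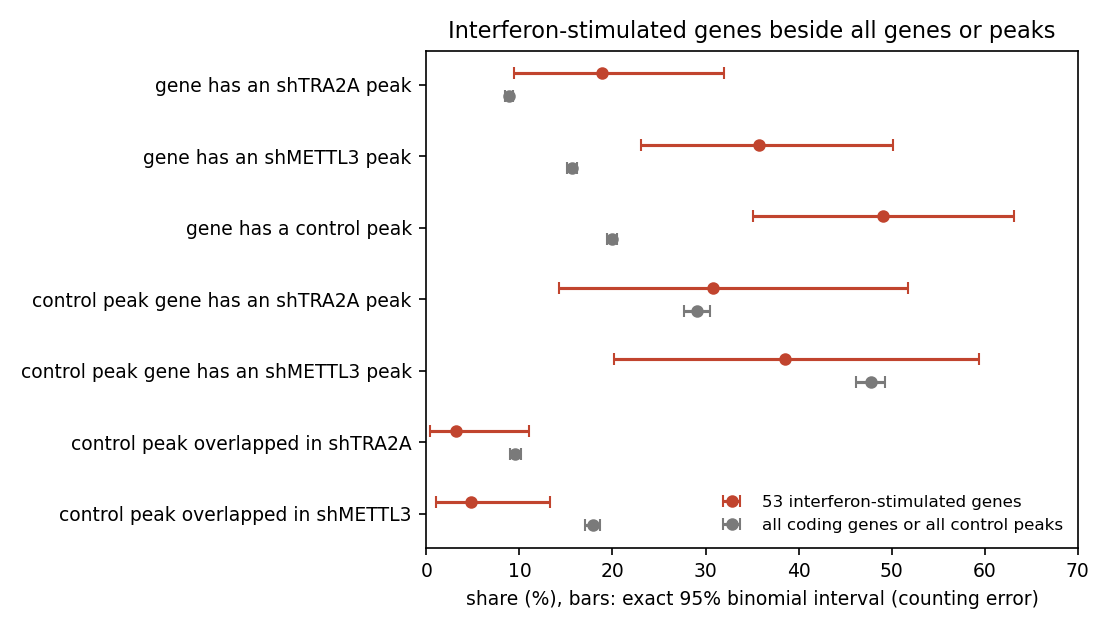
Shares in percent for the 53 interferon-stimulated genes or their control peaks (red) and for all coding genes or all control peaks (grey), with exact 95% binomial intervals that cover counting error only. Red lies right of grey in the top 3 rows (a gene has a peak), the intervals of the next pair of rows (a gene with a control peak has a knockdown peak) hold the grey value, and red lies left of grey in the bottom pair (a control peak was overlapped), where the shTRA2A interval also holds the grey value and the shMETTL3 interval does not.

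A few knockdown peaks stood beside a control peak of the same gene instead of on it. Of the 10 shTRA2A peaks in listed genes that had a control peak on the same strand, 3 lay within 200 nt of one without sharing a base, 30% (6.67 to 65.2%), against 12.9% of 1772 such peaks overall. Of 13 shMETTL3 peaks 3 did, 23.1% (5.04 to 53.8%), against 13.4% of 3401. The intervals hold the overall shares. The shTRA2A cases were GBP2, ADAR and ZC3HAV1, and the shMETTL3 cases were IFIH1, RNF213 and GBP2. The 200 nt limit was chosen after the positions were seen.

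The last 20% of the body held 3 of 12 peaks in shTRA2A, 25%, 12 of 23 in shMETTL3, 52.2%, and 36 of 63 in shNC, 57.1%. Over the peaks of other coding genes these shares were 39.3, 41.3 and 49.0%. All 11 control peaks of XAF1 lie in that stretch, and without XAF1 it held 25 of 52 control peaks, 48.1% (34 to 62.4%), near the share of other genes. Positions count introns, since the gene table has no exons. Peak widths are likewise spans from first to last base and include any gaps between the parts of a peak. The gene strand came from the promoter table for 41 genes and from the majority of peaks for 9.

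The counts by gene group that follow stand beside 8.86, 15.6 and 20.0% of all coding genes with a peak in shTRA2A, shMETTL3 and shNC. The groups are small and none was tested. Among the RNA and DNA sensors, 3 of 10 genes had an shTRA2A peak, 6 an shMETTL3 peak and 7 a control peak. RIGI, the sensor of 5′-triphosphate RNA (chr9:32455302-32526196), had no shTRA2A peak, 1 shMETTL3 peak of score 6.08 at chr9:32457127-32457301 and 1 control peak of score 28.2 at chr9:32457277-32457326. These 2 peaks overlap, about 2 kb from the 3′ end of the body. IFIH1, which encodes the long double-stranded RNA sensor MDA5 (chr2:162267074-162318684), had no shTRA2A peak, an shMETTL3 peak of 7033 nt and score 17.3 at chr2:162310908-162317940, and control peaks at chr2:162310608-162310682 and chr2:162310708-162310832 with scores of 21.9 and 31.0. Its shMETTL3 peak lay 75 nt from the nearer control peak and did not touch it.

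ADAR, the enzyme that edits adenosine to inosine in double-stranded RNA (chr1:154582057-154627997), had 1 peak in every list, each at another place. The shTRA2A peak (chr1:154601598-154601647, score 7.14) lay 175 nt from the control peak (chr1:154601298-154601422, score 37.0), and that of shMETTL3 (chr1:154584457-154584506, score 22.0) lay 16791 nt away, near the 3′ end. The ADAR control peak ranked 602 and the shMETTL3 peak ranked 210 in its list, the highest rank there of any listed gene. ZC3HAV1, the zinc finger antiviral protein that binds CG-rich viral RNA, had 2 shTRA2A peaks, no shMETTL3 peak and 1 control peak. The shTRA2A peak at chr7:139079614-139079688 (score 8.37) was 150 nt from the control peak at chr7:139079314-139079463 (score 14.7), and the other, chr7:139060346-139060420 with a score of 7.87, was 18893 nt from it.

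The OAS genes, whose products make the 2-5A that activates RNase L, had no shTRA2A peak. OAS1 had 1 control peak (score 19.5) and OAS2 had 2 (scores 20.3 and 11.7), with no peak in shMETTL3. OASL, an inactive relative, had an shMETTL3 peak (score 7.41) 375 nt from its control peak (score 12.5), and OAS3 had no peak. EIF2AK2, the RNA-activated kinase PKR, and IFI16, a DNA sensor, had knockdown peaks alone. EIF2AK2 had 1 in shMETTL3 (chr2:37106035-37106084, score 12.2), while IFI16 had 1 in shTRA2A (chr1:159014752-159014826, score 8.53) and 1 of 4042 nt in shMETTL3 (chr1:159045395-159049436, score 7.79), which did not overlap each other. Sensors made up 2 of the 9 genes with a knockdown peak and no control peak, near their part of the list, which is 10 of 53 genes.

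The Schlafen genes, which restrict viral RNA and act in the DNA damage response, held 1, 0 and 12 peaks in shTRA2A, shMETTL3 and shNC. SLFN5 (chr17:35243072-35273655) had no shTRA2A and no shMETTL3 peak, and 8 control peaks between chr17:35258878 and 35266031 with scores of 10.3 to 34.6. The upstream group of 3 peaks had scores of 18.8, 34.6 and 10.3 and lay 13252 to 14752 nt from the 3′ end. The downstream group of 5 had scores of 11.5, 12.5, 29.5, 27.3 and 19.0 and lay 7724 to 9016 nt from it. SLFN5 was thus without a knockdown peak although its best control peak ranked 688. SLFN11 (chr17:35350305-35373621), a tRNA nuclease that stalls damaged replication forks, had 1 shTRA2A peak at chr17:35352780-35352904 with a score of 8.59, no shMETTL3 peak, and 4 control peaks between chr17:35352605 and 35353425 with scores of 10.5 to 14.1. The shTRA2A peak overlapped the control peaks at chr17:35352730-35352829 and chr17:35352855-35352904, and these were the 2 control peaks of the 63 overlapped in shTRA2A, with scores of 13.9 and 11.1. The control peaks on either side, with scores of 10.5 and 14.1, were not overlapped.

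In the nuclear body and TRIM genes 1, 3 and 5 of 6 had a peak in shTRA2A, shMETTL3 and shNC. SP100, a core protein of PML bodies (chr2:230416201-230545606), had no shTRA2A peak, 2 shMETTL3 peaks and 5 control peaks. Its strongest control peak (chr2:230543951-230544300, score 51.3, rank 274) lay 1480 nt from the 3′ end and had no counterpart in either knockdown list. The shMETTL3 peak at chr2:230515521-230515595 (score 14.6) lay inside the control peak at chr2:230515496-230515695 (score 22.9), about 30 kb from the 3′ end. The other shMETTL3 peak, chr2:230493818-230493867 with a score of 4.58, was 21253 nt from the nearest control peak. The remaining control peaks had scores of 14.4, 14.4 and 12.4, so the place that shMETTL3 and the control shared was not the strongest control site.

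PML, which builds the bodies, had 1 shTRA2A peak (chr15:74045306-74045355, score 7.34), shMETTL3 peaks at chr15:73994848-73994922 and chr15:74044956-74045055 (scores 4.94 and 5.80), and control peaks at chr15:74036126-74036175 and chr15:74041090-74041139 (scores 13.2 and 10.4). No PML peak of a knockdown list overlapped a control peak, and 1 of the 2 control peaks was on the strand opposite to the other PML peaks. TRIM21, a cytosolic antibody receptor, had no shTRA2A peak, an shMETTL3 peak of score 18.4 (rank 360) at chr11:4388344-4388393, and a control peak of score 13.7 at chr11:4385322-4385446, 2897 nt apart. TRIM22 and TRIM5, restriction factors of retroviruses, had 1 control peak each (scores 15.1 and 18.2) and no other. SP110 was given no peak, but 1 shMETTL3 peak (score 8.21) and 2 control peaks (scores 29.3 and 25.1), all on its own strand, lay where its body and that of SP140 overlap without nesting and so went to no gene. In the same way 1 shMETTL3 peak (score 10.6) in the body of TRIM5 went to no gene and 1 control peak (score 11.7) went to TRIM34, both on the strand opposite to TRIM5.

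ISG15 itself, the activating enzyme UBA7 and the ligase HERC5 had a peak in no list. HERC6, the relative of HERC5 (chr4:88378852-88443097), had the best control peak of all listed genes, at chr4:88440626-88442618 with a score of 62.2 and rank 179. Its shMETTL3 peak of 200 nt at chr4:88442419-88442618 (score 8.24) ended at the same base as that control peak of 1993 nt, and its shTRA2A peak, of 5281 nt and score 7.67, lay 35668 nt away. TRIM25, a ligase for RIGI and an ISG15 ligase, had 1 control peak of score 10.8 and no other.

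The transcription factors and their partners had no control peak and no shTRA2A peak in any of 7 genes. STAT2, a signal transducer of the type I interferon receptor, had an shMETTL3 peak of score 7.99, IRF7 one of score 4.23 and NMI, a partner of STAT proteins, one of 3776 nt and score 7.45. IRF1, IRF2, IRF9 and IFI35 had a peak in no list. These 3 shMETTL3 peaks had ranks of 3195, 5284 and 3901 of 5433, so they stood in the lower 50% of the list.

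Of the interferon-induced GTPases GBP2 had the most peaks, 2 in shTRA2A, 1 in shMETTL3 and 3 in shNC (chr1:89106132-89126114). Its shTRA2A peak at chr1:89110185-89110234 had a score of 8.86, the highest among listed genes in that list, and began at the base after the end of the best control peak, chr1:89109867-89110184 (score 25.3). The other shTRA2A peak, chr1:89120224-89121202, had a score of 8.37, and the other control peaks had scores of 9.80 and 13.8. Its shMETTL3 peak (chr1:89108257-89109691, score 18.4) ended 175 nt short of the same control peak, so these peaks of the 3 lists were neighbours without sharing a base. GBP3 had 1 shMETTL3 peak (score 13.9), MX2, an inhibitor of HIV nuclear entry, 1 control peak (score 9.50), and GBP1 and MX1 none. These families have close paralogues, as have DDX60 and DDX60L, and the treatment of reads that map to several places is unknown here.

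In the helicase-like and RNA-associated genes 3, 3 and 4 of 6 had a peak in shTRA2A, shMETTL3 and shNC, and none was without a peak. RNF213, a giant ubiquitin ligase that binds ISG15 conjugates (chr17:80260852-80398794), had 1 shTRA2A, 2 shMETTL3 and 7 control peaks. The shMETTL3 peaks, of scores 7.20 and 16.1 at chr17:80394440-80394514 and chr17:80394565-80394614, lay 100 and 225 nt past the last control peak, chr17:80394165-80394339 (score 15.6). The shTRA2A peak of 994 nt and score 7.38 (chr17:80383903-80384896) lay 7519 nt from the nearest control peak. Along the body the control scores were 10.2, 15.8, 11.7, 13.8, 13.0, 11.7 and 15.6, with the last 3 peaks within 5080 nt of the 3′ end.

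ZNFX1, a sensor of viral RNA on mitochondria, had 1 shTRA2A peak (chr20:49266217-49266266, score 7.92), no shMETTL3 peak and control peaks at chr20:49246785-49246834 and chr20:49271092-49271141 (scores 10.7 and 13.9), with no overlap. HELZ2, a helicase that acts as a nuclear receptor coactivator, had 1 shTRA2A peak (chr20:63565262-63565361, score 7.73), shMETTL3 peaks of scores 9.91 and 9.34, and no control peak. DDX60 and DDX60L had 1 control peak each, with scores of 17.3 and 29.1, and no other, while TDRD7, a tudor domain protein, had 1 shMETTL3 peak (score 8.76) at the start of its body. None of the 12 shTRA2A peaks in listed genes overlapped an shMETTL3 peak. The share over the whole shTRA2A list is not given here, so this 0 cannot be read as particular to these genes.

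Of the 10 other effectors none had an shTRA2A peak, 1 had an shMETTL3 peak and 4 had control peaks, 15 in all. XAF1, a proapoptotic interferon target (chr17:6755447-6775647), had its 11 control peaks within 2377 nt (chr17:6773156-6775532), 340 to 2342 nt from the 3′ end, with scores of 13.9 to 57.1. Of these 6 were on the plus strand, which is that of the gene, and 5 on the minus strand, and each minus-strand peak overlapped a plus-strand peak, their starts differing by 2 to 27 nt and their ends by 2 to 23 nt. On the strand of the gene the scores were 25, 13.9, 18.8, 20.7, 56.5 and 39.4. Over the whole control list 7.02% of peaks overlapped a peak of the opposite strand, against 15.9% of the 63, all of them in XAF1.

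CMPK2, a mitochondrial nucleotide kinase, had 1 control peak (score 17.7), and its neighbour RSAD2, which makes the chain terminator ddhCTP, had 2 (scores 13.2 and 17.8). ISG20, an exonuclease, had 1 shMETTL3 peak of 1094 nt (score 9.74) and no other. IFI6, IFI44, IFI44L, BST2 and EPSTI1 had a peak in no list, and neither had PARP10 or PARP12, both ADP-ribosyltransferases. Antiviral effectors without a peak therefore included the short genes ISG15, BST2 and IFI6, whose bodies span 1044, 2692 and 6129 nt, and also EPSTI1, whose body spans 105854 nt.

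**Figure D4:**
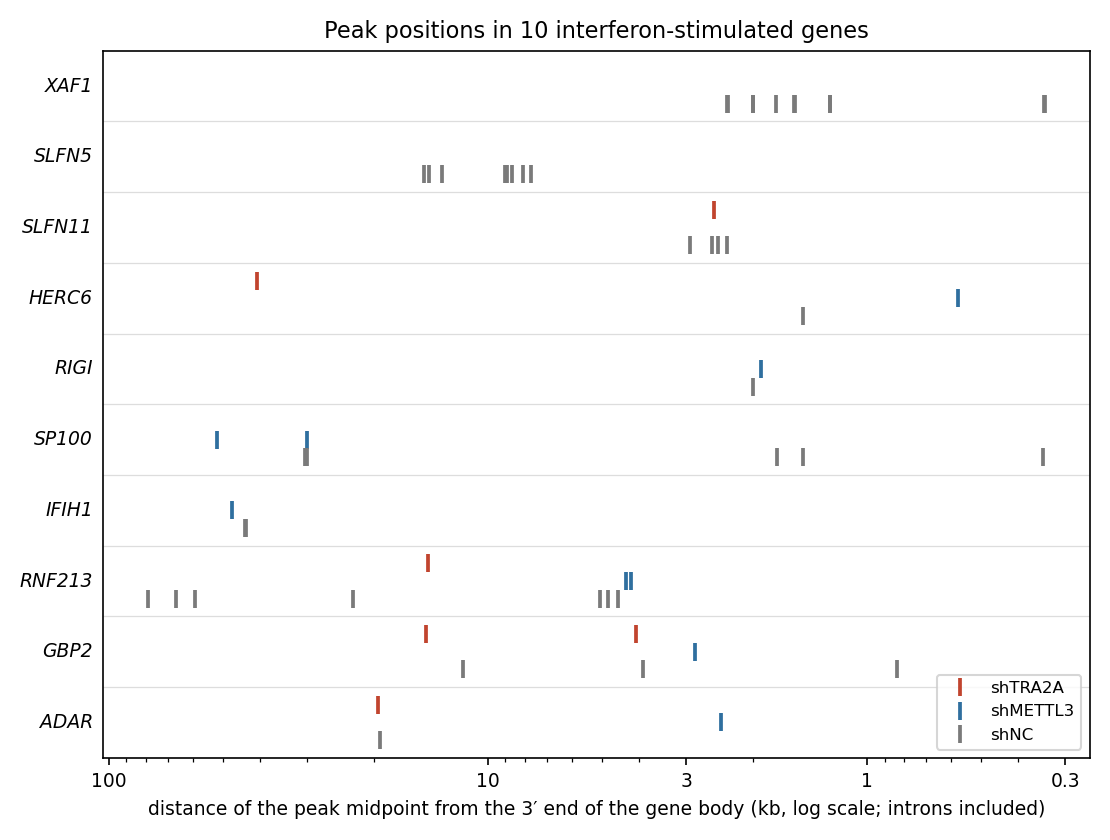
Peak midpoints in 10 listed genes, as distance from the 3′ end of the gene body in kb on a log scale with introns included, with shTRA2A, shMETTL3 and shNC in rows from top to bottom for each gene. SLFN11 has its shTRA2A peak among its control peaks and RIGI its shMETTL3 peak overlapping its control peak, whereas ADAR, RNF213 and GBP2 have knockdown peaks away from or next to control peaks and XAF1 and SLFN5 have control peaks alone.

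Knockdown peaks in listed genes without a control peak were found in both lists. In shTRA2A they were in HELZ2 and IFI16, 2 of the 10 genes with an shTRA2A peak, 20.0% (2.52 to 55.6%), against 34.5% over all genes. In shMETTL3 they were in 9 of 19 genes, 47.4% (24.4 to 71.1%), against 39.1%. Both overall shares lie within the intervals.

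The rest of the interferon pathway was read from a list of 32 sensors, adaptors, ligands, receptors, kinases and inhibitors that are not among the 53. Of these 32 genes 3 had an shTRA2A peak, 6 an shMETTL3 peak and 10 a control peak. The shares over all coding genes were 8.86, 15.6 and 20.0%, and the difference from them was not tested. TRAF6, an adaptor ubiquitin ligase, had 1 shTRA2A, 2 shMETTL3 and 4 control peaks, of which 1 was overlapped in each knockdown list. IFNAR1, a chain of the type I interferon receptor, had no shTRA2A peak, 1 shMETTL3 peak (score 22.8) and 1 control peak (score 19.2), and that control peak was overlapped. MAVS, the adaptor of RIGI and IFIH1, had 0, 3 and 2 peaks, with 1 control peak overlapped in shMETTL3. TLR3, the endosomal double-stranded RNA receptor, had 2 control peaks (best score 34.7) and no other. None of the 4 ligand genes on the list (IFNB1, IFNE, IFNK and IFNL1) had a peak.

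The lists carry no transcript levels, so neither hairpin's effect on its target can be read from them, and the identity of the line can be checked only through peaks. TRA2A had 1, 0 and 0 peaks in shTRA2A, shMETTL3 and shNC, and METTL3 had none. Of 8 glioma or astrocyte markers NES and SOX9 had peaks in all lists and CD44 in the control, while GFAP, VIM, FABP7, CHI3L1 and S100B had none. None of 8 leukocyte markers had a peak in any list, which does not show that their transcripts were absent.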

How the data were processed

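Fragmented total RNA of U-251 MG cells was immunoprecipitated for m6A and sequenced paired-end from stranded libraries, per the labels' protocols, with 1 immunoprecipitated and 1 input library for each of shTRA2A, shMETTL3 and shNC. The build GRCh38 and the tools HISAT2 2.2.1, featureCounts 2.0.1 and SAMtools come from the submitters' processing notes, which give them no order. No label or header names the peak caller, its thresholds or the read depth. The deposited lists are 12-column BED files whose column 5 is the score the authors' caller gave each peak, on an unstated scale. A list whose name matches no label equals the shTRA2A list byte for byte and was left out.

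Values were computed in Python 3.11.15 (scipy 1.17.1 for intervals, pandas 2.3.3 and numpy 2.4.6 for tables) and plotted with matplotlib 3.10.9. Overlap means 1 or more common bases between the spans of peaks of the same strand, each taken from its first to its last base. The blocks within a peak were not used for overlap, width, distance or gene assignment, so any bases between blocks count as part of the peak. That step was checked on simulated peaks and against bedtools 2.31.1 (0 of 18412 answers differed). The lists held 2736, 5433 and 9206 peaks for shTRA2A, shMETTL3 and shNC, of which 92.1, 92.5 and 92.7% fell to a coding gene. No test between conditions was made. Genes were described in full if they had 3 or more control peaks, a peak in all lists, an overlapped control peak, or were among the 5 listed genes with the best-scoring peak of a list; the others are given by counts, ranges or name. The 200 nt limit for neighbouring peaks was added after the peaks were seen. The genes, the gene groups and the search motifs were chosen with earlier results of these data known. Alternatives for peak width, gene assignment, score, list length, strand and overlap were run.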

Additional observations from a re-analysis of the deposited data

How the results depend on the processing

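No paired analysis was possible because each condition has 1 peak list. Of 60 alternative values 43 were within 1.5 times the value reported and 17 were not, each of these where the lists were shortened or the overlap made stricter. With the better-scored 50% of every list kept, 4 and 11 listed genes had a peak in shTRA2A and in shMETTL3; of 23 genes with a control peak there 3 had an shTRA2A and 6 an shMETTL3 peak; of 48 control peaks 1 was overlapped in shTRA2A and 1 in shMETTL3, that one in 1 gene (each 2.08%, 0.0527 to 11.1%, against 12% and 19.0% of all control peaks so kept). With each list limited to its best 2736 peaks, 11 genes had an shMETTL3 peak and 15 a control peak; of these 15, 3 had an shTRA2A and 4 an shMETTL3 peak; of 29 control peaks 0 were overlapped in shTRA2A, in 0 genes, which allows up to 10.3% at 3 counts of the total (exact upper bound 11.9%), against 22.1% of all control peaks so limited, and 1 was overlapped in shMETTL3, in 1 gene, against 25.5%. When 50% of the control peak had to be covered, 1 control peak in 1 gene was found in shMETTL3, 1.59%, against 10.5% of all control peaks. Peaks of a gene are not independent, so these intervals and bounds over peaks are too narrow. By gene, the 0 of 15 for shTRA2A at equal length has an exact upper bound of 21.8%. These shorter lists and the stricter rule hold fewer peaks by construction. With the better-scored 50% kept, 4.73 and 9.15% of all coding genes had a peak in shTRA2A and shMETTL3. At equal length 9.21 and 7.86% had one in shMETTL3 and shNC. For genes with a control peak, the shares over all genes under these settings are not given here. Their fall therefore cannot be read as particular to the listed genes. With regular peaks only (1 block, a multiple of 25 nt and at most 1000 nt wide), every coding body touched, the strand of the gene only, midpoints within 100 nt or strand ignored, no value moved by more than 1.5 times. Without XAF1, a choice made after the data were seen, 2 and 3 of 52 control peaks were overlapped in shTRA2A and shMETTL3, and 25 of 52 lay in the last 20% of the body. Counts of 1 to 3 overlapped peaks limit every statement on overlap, and unknown read depth limits every statement on a missing peak.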
